A study of Mus musculus with 31 samples.

Results

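Bins of the autosomes in which a control immunoprecipitation collected many reads are described here. The library was made from DNA of Srap1 knockout (KO) mouse embryonic stem (ES) cells and precipitated with control IgG, so it carries no antibody to a modified cytosine (IgG DIP). The members were chosen by the reads themselves. Reads with a mapping quality of at least 30 on chromosomes 1 to 19 were assigned by midpoint to fixed bins of 10 kb, and bins with 60 or more reads were taken. This gave 3001 of 235097 bins with at least 1 such read, or 1.28%, and no bin was dropped afterwards. The read counts are a description of how the members were picked and support nothing. Bins with 20 to 40 reads, 109642 in number, serve as typical bins.

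The series compares Srap1 KO with wild-type ES cells of a 129SVxC57/BL6 background that were derived together. Cells for the immunoprecipitations were at passages 3 to 5 and, like those for RNA, grew with leukemia inhibitory factor, 2i inhibitors and ascorbic acid. Of 31 samples, 8 had a file in this work, and the other 23 were not analysed here. Besides the IgG DIP of KO DNA these were 4 wild-type RNA tables, 2 KO RNA tables that were identical and counted as 1 sample, and a list of windows from a ChIP with mouse IgG1. The protocol describes the ChIP cells as ES cells that stably express tagged Srap1 (FHA-Srap1). The labels name no separate cultures or clones for any group, so the spread between RNA replicates may be technical. All densities come from 1 library, so no difference between bins has a replicate check. The IgG DIP of wild-type DNA was not analysed here.

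A control IgG binds no chosen target, and what it brings down is DNA carried along in the procedure. Its reads follow the amount of each sequence in the cells, how well the sequence amplifies, and how many positions a read can be placed at. Repeats that an assembly holds in fewer copies than the genome collect reads from every copy, and such places are usually masked in studies of immunoprecipitated DNA. Mapping quality is a score that falls when a read could lie in several places. Base composition was not measured, because no genome of build mm9 was used, and for the same reason no sequence of a bin is printed. Positions are on mm9 and counted from 1.

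Reads of quality of at least 30 on the autosomes numbered 7078073. Bins held a median of 30, with quartiles of 18 and 41. Their distribution had a pair of broad maxima, at 17 reads (5506 bins) and at 36 reads (5466 bins), with a trough at 26 reads (4877 bins). Most dense bins lay just above the threshold. Their median was 63 reads, with quartiles of 61 and 66. Within 5 reads of the threshold, from 60 to 64, lay 1988 of the 3001. Just inside the threshold 609 bins held 60 reads, and just outside it 747 bins held 59. Another 78 bins held 90 to 192 reads, and 23 held 200 to 3924. All dense bins together held 214119 reads, or 3.03% of those kept.

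**Figure D1:**
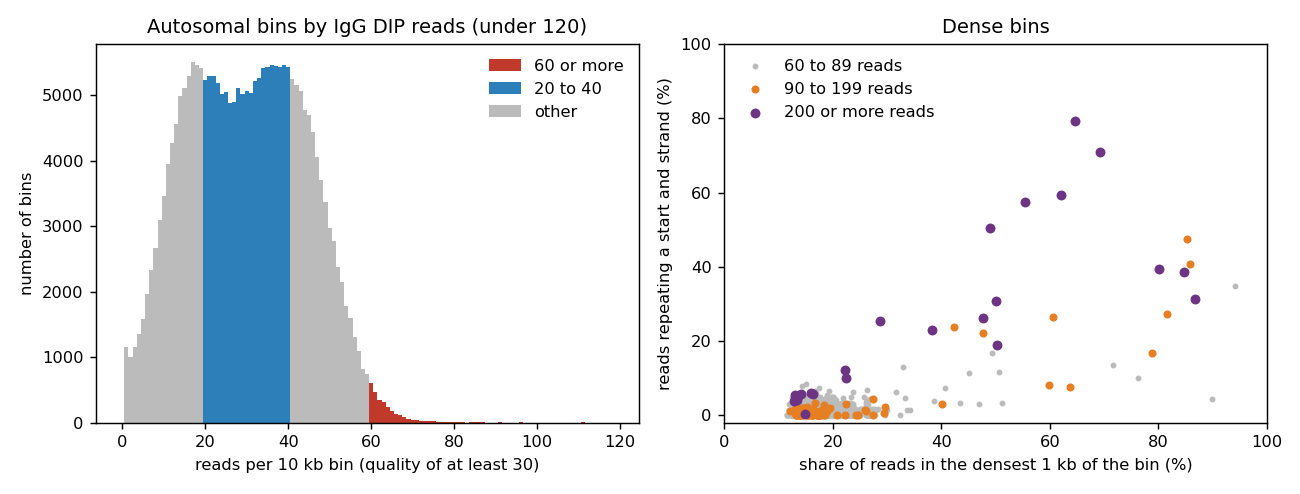
Left, number of autosomal bins against reads per 10 kb bin, for bins under 120 reads, with the dense bins and the bins of 20 to 40 reads coloured. Right, for each of the 3001 dense bins, the share of its reads in its densest 1 kb (x axis, %) against the share that repeats a start and strand (y axis, %). Most bins of 60 to 89 reads sit at the lower left, and 9 of the 23 bins with 200 or more reads have at least 50% of their reads in 1 kb.

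Every autosome carried dense bins, but at unequal rates. Chromosome 14 had 363, or 3.17% of its bins (95% exact binomial interval 2.85% to 3.50%). Chromosome 11 followed with 295, or 2.49% (2.22% to 2.79%), and chromosome 17 with 172, or 1.91% (1.63% to 2.21%). The lowest rates were 61 bins on chromosome 3, or 0.392%, and 56 on chromosome 13, or 0.490% (0.370% to 0.636%). Intervals here and below cover counting error only. Amplified reads without molecular identifiers are not independent molecules, and neighbouring bins are not independent either. The median of all bins on a chromosome was 37 reads on chromosome 11 and 25 on chromosome 3. On chromosome 14 it was 31, close to the 30 of all autosomes.

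**Figure D2:**
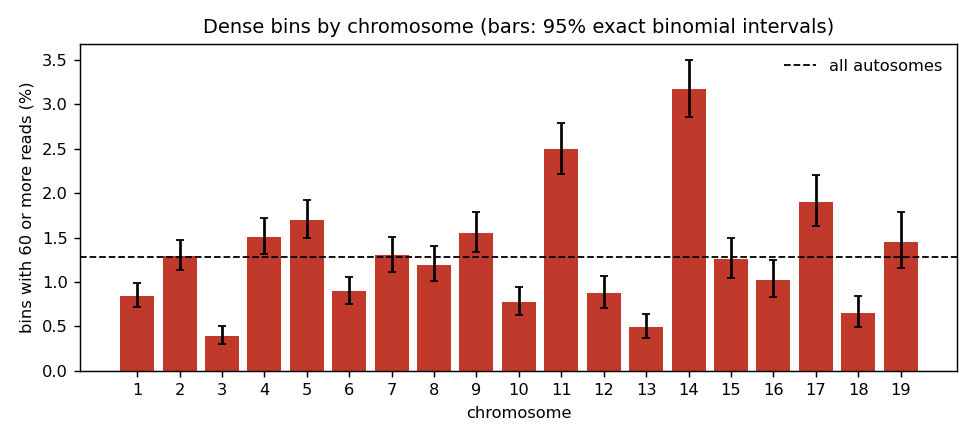
Share of the bins of each autosome that held 60 or more reads (y axis, %), with 95% exact binomial intervals. The dashed line is the 1.28% of all autosomes, and chromosome 14 stands highest at 3.17%.

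The dense bins of chromosome 14 lay at its far end. From 90 Mb onwards it held 299 of its 363 dense bins. In the piece from 120 Mb to the end, 159 of 518 bins were dense, or 30.7%, and the median bin held 49 reads. The 2 pieces of 10 Mb before it had 5.90% and 5.72% dense bins. Before 90 Mb the highest piece of chromosome 14 had 1.90%. Over 251 pieces of 10 Mb on all autosomes the median was 0.700%, and the next highest after the end of chromosome 14 was 7.48%, the last piece of chromosome 5. The pieces were singled out after their values were seen.

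Bins around the dense bins also held more reads. The bins directly beside a dense bin held a median of 48 reads, with quartiles of 41 and 55, and those beside a typical bin 30, with quartiles of 22 and 39. At 100 kb the medians were 45 and 31 reads, at 500 kb 43 and 31, and at 1000 kb 41 and 30. Dense bins with no dense neighbour had a median of 46 reads in the bins beside them. A neighbour's reads did not enter the choice of the bin beside it. Of the bins beside dense bins, however, 14.6% were themselves dense, so their counts also picked members and are given as a description. All counts come from the same library. At 10 kb the lower quartile beside dense bins, 41 reads, lay above the upper quartile beside typical bins.

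**Figure D3:**
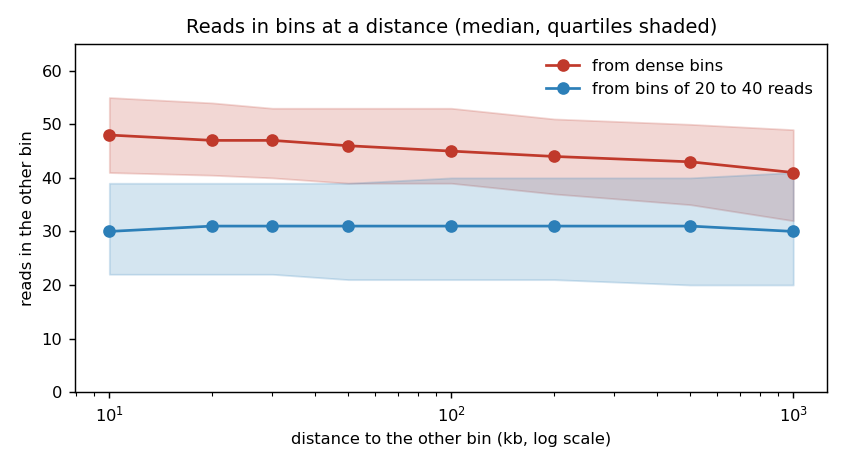
Reads in bins at a given distance (x axis, kb, log scale) from dense bins and from bins of 20 to 40 reads. Points are medians and the shading spans the quartiles; beside dense bins the median is 48 reads at 10 kb and 41 at 1000 kb, against 30 and 30 beside typical bins.

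The 3001 dense bins formed 2562 runs of adjacent bins, of which 2344 were single bins. In all 657 dense bins, or 21.9%, had a dense neighbour. Runs of 4 or more bins numbered 35, with 267 bins, and lay on 9 chromosomes. Chromosome 14 held 126 of these bins and chromosome 17 held 58. Without chromosome 14 the share of dense bins with a dense neighbour was 17.1%. It was 52.5% both at a threshold of 90 reads, which left 101 bins, and with reads of every mapping quality, which gave 1767.

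The long runs came in different settings. The 18 runs on chromosome 14 from 90 Mb held 0.985 to 1.42 times the median of up to 50 bins on either side, and those flanks were themselves at 49.5 to 66 reads. Elsewhere the 17 long runs stood at 1.43 to 24.7 times their flanks, with a median ratio of 1.92, and 15 of them reached 1.5 times. These flanks had medians of 17 to 53 reads. The ratios rest on the counts that picked the bins and are given as a description. Runs were grouped by place after their values were seen, and the ratios of both groups nearly met, at 1.42 and 1.43. Flanks could hold other dense runs, as did those of the run of 12 bins on chromosome 17, which lowers the ratio.

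The longest run covered 29 bins on chromosome 17, from 30770001 to 31060000. Its bins held 65 to 108 reads with a median of 92. The bin before it had 34 reads and the bin after it 57. The run of 12 bins from 30640001 to 30760000 and a run of 4 bins before that lay in the same stretch. From 30590001 to 31060000, 45 of 47 bins were dense, and the remaining ones had 59 and 34 reads. The median over this stretch of 470 kb was 90 reads, against 46 in the 50 bins on either side. RNA was listed there in both genotypes, with 79 KO loci of up to 38.9 FPKM. FPKM counts RNA fragments relative to the length of the locus and the size of the library.

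The third longest run, 13 bins from 27430001 to 27560000 on chromosome 17, had 74 to 104 reads per bin against a flank median of 44.5. No RNA locus of either genotype overlapped it. On chromosome 9, a run of 12 bins from 46690001 to 46810000 and one of 11 bins made up 23 of the 25 bins up to 46940000, with a median of 80 reads over this stretch against 42.5 around it. This stretch also had no KO RNA locus. The second longest run, 21 bins from 121570001 to 121780000, lay on chromosome 14. Its bins held 63 to 85 reads, the bins before and after it 54 and 55, and its flanks a median of 62.5. In it 14 of 21 bins overlapped a KO locus and 5 a wild-type locus.

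**Figure D4:**
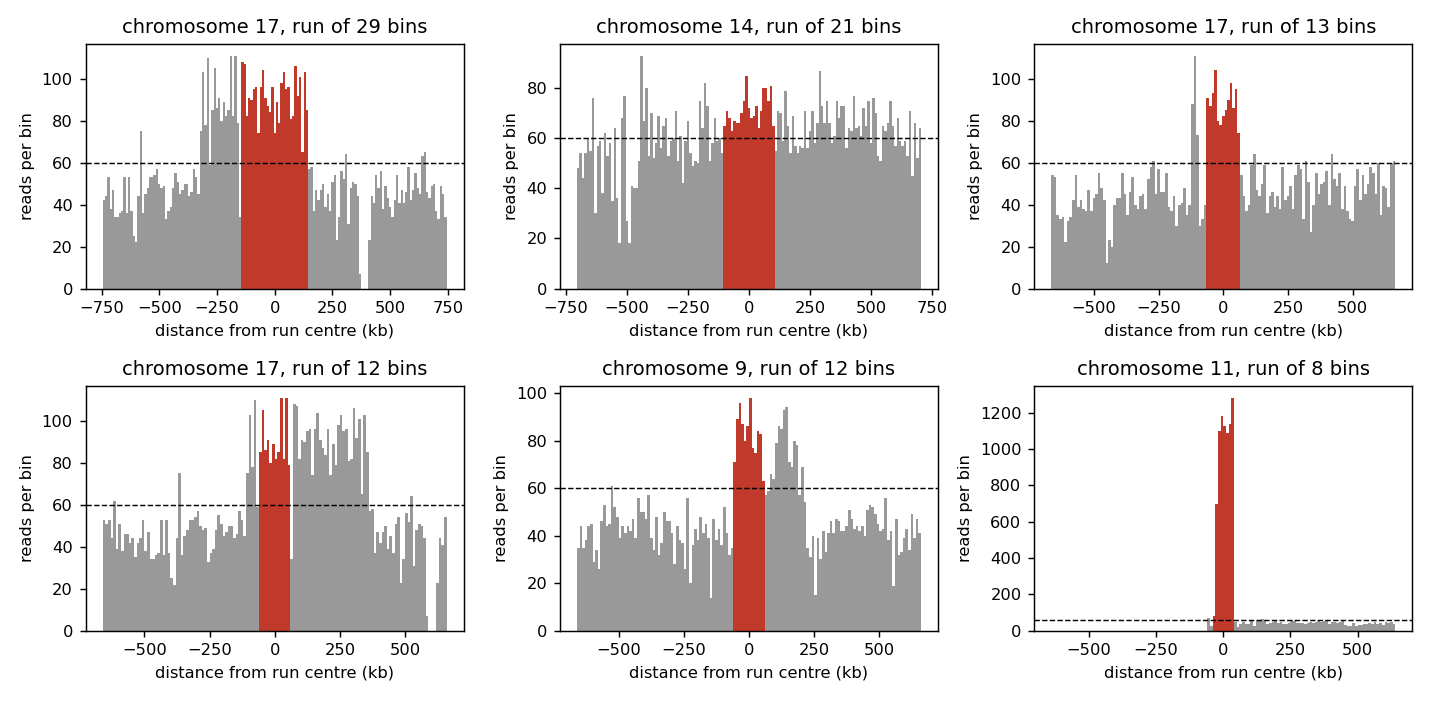
Reads per 10 kb bin (y axis) against distance from the centre of the run (x axis, kb) for the 5 longest runs and for the run of 8 bins on chromosome 11, whose bins held 84 to 1281 reads. Bins of the run are coloured, other bins are grey, the dashed line marks 60 reads and the y axes differ; the chromosome 14 run sits in flanks with a median of 62.5 reads, whereas those on chromosomes 9 and 17 rise from flanks of 44 to 52.5.

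Repeated starts and the spread of reads within a bin were not used by the rule, but both change with the read count. In dense bins 8687 reads, or 4.06% (3.97% to 4.14%), began at a position and strand already taken by another read. The typical bins had 0.647% (0.638% to 0.655%). Reads spread evenly over a bin would repeat a start in 0.496% and 0.0759%. The 23 bins with 200 or more reads held 75.8% of the repeated reads of all dense bins. Without them the share was 1.08%. At a threshold of 90 reads it was 24.8%, and with reads of every mapping quality 59.4%. No read repeated a start in 1698 dense bins (56.6%) and in 82.3% of typical bins. Repeats of 10% or more were seen in 29 of the 3001 dense bins, 82 of the 109642 typical bins and 865 of all 235097 bins. With 1 read per start and strand, 2726 of the 3001 (90.8%) still had 60 reads. Of the 275 that did not, 273 had held 60 to 64 reads, and the lowest kept 45.

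In the median dense bin 16.7% of the reads lay in the densest 1 kb, and each of its 10 pieces of 1 kb held reads. In the median typical bin, with fewer reads, the densest 1 kb had 20.7%, and 9 pieces held reads. At least 50% of the reads lay in 1 kb in 22 of the 3001 dense bins, 57 of the 109642 typical bins and 9037 of all 235097 bins. Of those 9037, 8950 held only 1 to 19 reads. Reads under quality 30, which the rule left out, made up 2.90% of all reads in the median dense bin and 7.69% in the median typical bin. Pooled over bins the order was reversed, with 61.8% in dense bins and 11.8% in typical bins. The 23 bins with 200 or more reads held 289109 of the 346966 reads under quality 30 in dense bins. In bins of 60 to 89 reads the pooled share was 22.7%. Of the 54634 such reads there, 44035 lay in the 145 bins of 75 to 89 reads. In those the pooled share was 79.1%, but the median bin had 2.60%. At 60 to 64 and 65 to 74 reads the pooled shares were 4.19% and 9.18%, below the 11.8% of typical bins. The reversed order was therefore not seen in these lower classes. At a threshold of 90 reads the median was 6.25%. Reads under quality 30 made up 50% or more in 37 of the 3001 dense bins, 955 of the 109642 typical bins and 22382 of all 235097 bins. Among the 23 bins with 200 or more reads, 9 were of that kind and 11 had under 20% such reads.

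The 10 bins with the most reads fell into 4 places. The first was chromosome 2, 98500001 to 98510000, with 3924 reads, 131 times the autosomal median. There 97.1% of all 136668 reads had a quality under 30, and 79.3% of those kept repeated a start. Its densest 1 kb held 64.6% of the reads, and with 1 read per start 812 remained. The second was chromosome 17, 39980001 to 39990000, with 1710 reads, of which 12.1% repeated a start. A long RNA locus in this bin reached 3046 FPKM in the KO. In the wild-type replicates it stood at 49757, 47660, 49627 and 50078 FPKM. The KO and wild-type tables differ greatly in the number of loci listed, so no difference between genotypes is read from these levels. From general knowledge of mm9, this is where the assembly carries a copy of the 45S precursor of ribosomal RNA, a gene that mouse cells hold in many copies.

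A further 6 of the 10 lay next to each other on chromosome 11. The run they belong to spans 8 bins from 3020001 to 3100000 and began with a bin of 84 reads. The 6 bins held 1087 to 1281 reads each, and the bins before and after the run 24 and 49. Repeats were few, from 4.00% to 5.74% of the reads, and the densest 1 kb held 12.9% to 16.4%, so these reads were spread along each bin. Reads under quality 30 made up 7.57% to 15.9%. From general knowledge, Sfi1 lies here on mm9, a gene for a centrin-binding protein of the centrosome. RNA levels in these 6 bins were modest. In 5 of them the highest KO locus had 15.1 to 37.1 FPKM, and in the sixth no KO locus was listed. Wild-type loci reached 50.2 FPKM.

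The last 2 of the 10 lay on chromosome 6, in a run of 4 bins from 87850001 to 87890000, with 1016 and 963 reads. From general knowledge this interval holds Hmces, the gene also called Srap1. Here 57.4% and 50.6% of reads repeated a start, and in the first of them 55.5% lay in the densest 1 kb. Reads under quality 30 were 0.0983% and 0.414% of the total, the lowest shares among the 10. Chromosome 11 and chromosome 6 thus differed in form, with broad cover and few repeats at the first and stacked, repeated reads at the second. In the KO table the highest loci of these bins had 35.3 and 1325 FPKM, the latter a locus of 72 bases. The highest wild-type loci had 19.4 to 76.5 FPKM in the first bin and 26.0 to 39.2 FPKM in the second. The cause of either density was not tested.

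The bins with the most reads lay close to gaps or ends more often than the rest. Of the 23 bins with 200 or more reads, 13 (56.5%, interval 34.5% to 76.8%) were within 100 kb of a bin without reads or of the end of the reads on their chromosome. For the bins of 60 to 89 reads it was 65 of 2900, or 2.24% (1.73% to 2.85%), and for typical bins 3.67% (3.56% to 3.78%). In the first or last 100 kb of the stretch with reads on a chromosome lay 12 of the 23. Of these 12, 7 belonged to the chromosome 11 run, and others to a run on chromosome 9 from 3000001 to 3040000. They are therefore not 12 separate places, and the interval for the 23 bins takes them as independent.

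Reads fell about equally on both strands. Pooled over dense bins, 49.97% of reads were forward (49.75% to 50.2%), and in typical bins the interval was 49.95% to 50.05%. An exact two-sided binomial test of each bin, adjusted by Benjamini-Hochberg over the 170796 bins with 20 or more reads, found 0 dense bins and 0% of all bins with an imbalance. With bins chosen and tested on reads of every mapping quality, the same test called 21 bins, 19 of them dense. With quality of at least 30, at an unadjusted p under 0.05, there were 143 dense bins, or 4.77% of them, against 4.12% of all bins tested, a share near the background. This test compares reads of 1 library and has more power where reads are many. On simulated reads it called 47 of 100 dense bins given a forward share of 0.75, and 100 of 100 given 0.9. Both sets of 100 were simulated in the same run, and calls at some bins ease the adjusted threshold for the others. A lone imbalanced bin would be called less often than these counts show. A dense bin without a call may therefore still hold a forward share as far from even as 0.75, or further. The smallest p among dense bins was at chromosome 9, 78020001 to 78030000, with 48 of 62 reads forward, an adjusted p of 0.472 in the exact test. This bin was singled out after its value was seen. In the 45S bin of chromosome 17, 786 of 1710 reads were forward, or 46.0% (43.6% to 48.4%). The adjusted test did not call this bin either. Of its reads 12.1% repeated a start, whereas the interval takes all reads as independent.

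RNA loci lay over dense bins more often than over typical ones, in both genotypes. A locus of the KO table overlapped 1394 of the 3001 dense bins by at least 1 base, or 46.5% (44.7% to 48.3%), against 19.4% of typical bins and 19.9% of all bins. The difference from typical bins was 27.1 percentage points (Newcombe interval 25.3 to 28.9). A wild-type locus in at least 1 of the 4 tables overlapped 709 dense bins, or 23.6% (22.1% to 25.2%), against 7.33% of typical bins and 8.13% of all bins. That difference was 16.3 points (14.8 to 17.9). Taken singly, the wild-type replicates overlapped 459, 468, 481 and 492 dense bins, or 15.3% to 16.4%, and 4.40% to 4.56% of the typical bins. All 4 replicates had a locus at 279 dense bins, or 9.30%, against 2.30% of typical bins and 2.73% of all bins. In each of the 19 chromosomes the dense share exceeded the typical one, for the KO table and for the wild-type tables.

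Both differences depended on how the bins were chosen. At a threshold of 90 reads the wild-type difference was 27.3 points (18.8 to 37.0) and the KO difference 30.1 points (20.6 to 39.7). With reads of every mapping quality, 1767 bins held at least 2 times the median of such reads, and 695 of the 3001 were among them. Typical bins were redefined for this setting as those with 23 to 47 such reads. The differences then fell to 8.81 points for the KO and 7.54 points for the wild type. The KO table listed 143073 loci, against 8882 to 9295 in each wild-type replicate. The higher KO share cannot be told apart from this longer list, and no difference between genotypes is read from it. Of the dense bins, 669 (22.3%) had a locus in both genotypes, 725 (24.2%) in the KO alone and 40 (1.33%) in the wild type alone. Of the typical bins, 6.88% had one in both, 12.5% in the KO alone and 0.453% in the wild type alone. Neither genotype had one at 1567 dense bins, or 52.2%, and at 80.1% of typical bins.

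The share with a KO locus rose with the read class and then levelled. It was 4.00% at 1 to 19 reads, 37.1% at 41 to 59, and 45.8%, 48.0% and 44.8% at 60 to 64, 65 to 74 and 75 to 89 reads. At 90 to 192 reads it was 43.6% (32.4% to 55.3%). The 23 bins with most reads had 69.6% (47.1% to 86.8%), and 10 of the 23 belong to the runs on chromosomes 6 and 11. Single dense bins had 46.2% (44.2% to 48.3%) and bins of long runs 46.1%. At the far end of chromosome 14, from 90 Mb, 42.1% of dense bins (36.5% to 48.0%) had a KO locus, and of the typical bins there 2.92% did. Both shares pool pieces that differ. Of all bins, 2.90%, 8.63% and 8.40% had a KO locus in the pieces starting at 90, 100 and 110 Mb. From 120 Mb, where 159 of the 299 dense bins lay, it was 25.9%. Dense and typical bins were not compared within a piece.

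**Figure D5:**
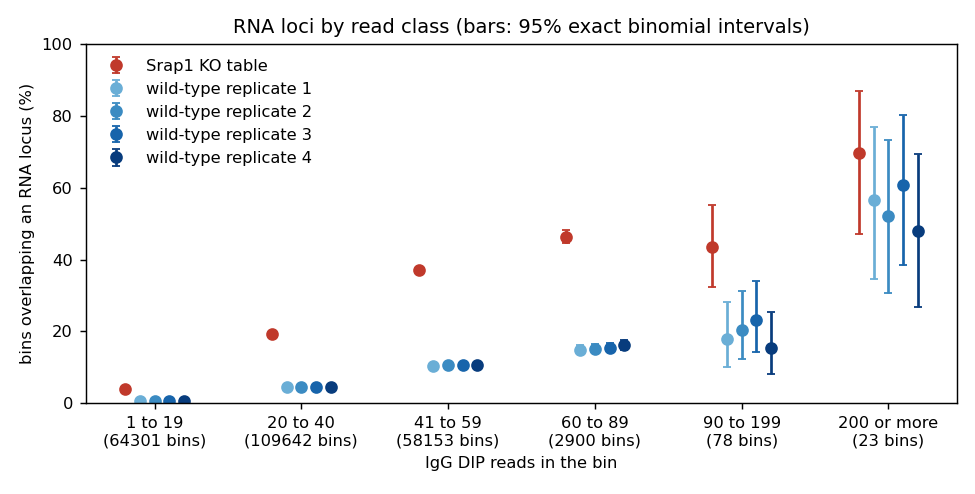
Share of bins overlapping an RNA locus (y axis, %) by the number of IgG DIP reads in the bin (x axis), for the KO table and the 4 wild-type replicates, with 95% exact binomial intervals. The KO share goes from 4.00% at 1 to 19 reads to 46.3% at 60 to 89, and the wild-type replicates stay close to each other below the KO.

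Where a locus was present, the quartiles of its level overlapped between both kinds of bin. The highest KO locus in a bin had a median of 12.8 FPKM in dense bins (quartiles 5.71 and 29.7) and 13.1 FPKM in typical bins (quartiles 6.10 and 31.6). The wild-type medians were 21.5 to 22.5 FPKM in dense and 19.7 to 20.1 FPKM in typical bins. The dense bin with the highest KO level was on chromosome 7, 29600001 to 29610000, where a locus of 51 bases had 61086 FPKM. The highest wild-type mean was at chromosome 13, 97960001 to 97970000, with 409, 797, 117670 and 118527 FPKM in replicates 1 to 4. The replicates thus disagreed, and in the last pair the value belonged to loci of 94 and 93 bases.

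The ChIP with mouse IgG1 is a control library that the rule did not use. Of the dense bins, 8 overlapped any of its 1730 windows, or 0.267% (0.115% to 0.525%), against 0.570% of typical bins and 0.582% of all bins. The difference from typical bins was -0.30 percentage points (-0.44 to -0.04). This rests on 8 bins. With 1 read per start and strand the interval was -0.42 to 0.02, and at a threshold of 90 reads the difference was 0.42 points, with an interval of -0.40 to 4.83.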

How the data were processed

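The IgG DIP file has 1 row per read with a mapping quality score from the authors' alignment, as deposited. The RNA tables give FPKM per locus, computed by the authors within each library, per the file headers. Tools in the submitters' processing notes, without roles, are Bowtie 0.12.8, Trim Galore 0.3.5 and MACS2 2.1.1, with Cufflinks 2.2.1.0 for the RNA and Bismark 0.14.5 for the DNA samples. The sources used here do not give the settings behind the ChIP windows. The notes name mm9 and mm10 for DNA and mm9 for RNA; read positions run to the chromosome ends of mm9. Starts are 5′ ends of reads. Loci and windows overlap a bin by 1 base or more. FPKM was not compared between KO and wild type, because they list such different numbers of loci, and why they do was not tested. Python 3.11.15 with scipy 1.17.1 (exact binomial tests and intervals) and statsmodels 0.14.6 (Newcombe intervals) was used, and the strand test was tested on simulated data. Of the 9127504 reads, 19.8% of the autosomal ones were under quality 30. By a rule, bins named are the 10 with most reads, the 5 longest runs, and those with the highest RNA level. Other named bins were picked after their values were seen. The rule also asked for bins with a strand imbalance, of which none passed. Members and comparisons were chosen with earlier results of these data known. Gene names are general knowledge of mm9; the tables pair no locus with a gene.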

Additional observations from a re-analysis of the deposited data

How the results depend on the processing

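Each result was recomputed under the alternatives that bear on it, 61 values in all, of which 39 stayed within the interval of the reported value or, for counts, within 1.5 times it. Leaving out bins of 200 or more reads and leaving out chromosome 14 were chosen after seeing the data. With 1 read per start and strand repeats become 0% by construction, and the interval of the ChIP difference then held 0 (-0.42 to 0.02), as it did without chromosome 14 (-0.44 to 0.02). A grid shifted by 5 kb moved no value out of the reported interval. A threshold of 90 reads left 101 bins, with 24.8% repeated starts and 52.5% of bins with a dense neighbour. In the median bin at this threshold, 17.4% of reads lay in the densest 1 kb and 6.25% of all reads were under quality 30. The RNA differences at 90 reads were 30.1 points (KO) and 27.3 points (wild type), and the ChIP difference turned to 0.42 points. With every mapping quality (a threshold of 70 reads) there were 1767 bins, 59.4% repeats, 17.6% of reads in the densest 1 kb and 52.5% of bins with a dense neighbour. Typical bins of this setting held 23 to 47 reads. The differences were 8.81 points (KO), 7.54 points (wild type) and -0.45 points (ChIP). Of 210830 bins tested, 21 had a strand imbalance in the exact test with Benjamini-Hochberg adjustment, 19 of them among the 1767. Loci of at least 5 FPKM gave a KO difference of 21.2 points, and at least 1000 covered bases 23.2 points. Without bins of 200 or more reads repeats were 1.08%. Without chromosome 14 they were 4.47%, and 17.1% of dense bins had a dense neighbour. The causes were not tested. Without each wild-type replicate the wild-type difference was 15.1 to 15.7 points. No paired analysis was possible because the strand test uses 1 library and the KO RNA is 1 sample. Bins just over 60 reads cannot be told from those just under it at this depth.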

Other observations

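A few dense bins hold very abundant RNA loci, a pattern looked for after the data were seen. A locus of at least 1000 FPKM in the KO table lay over 22 dense bins, or 0.733% (95% exact binomial interval 0.460% to 1.11%), and over 0.334% of typical bins (0.301% to 0.370%). Taken only over bins with a KO locus, the dense share was not higher, with 22 of 1394 dense and 366 of 21275 typical bins. In the wild-type replicates such a locus lay over 5, 5, 7 and 6 dense bins, or 0.167% to 0.233%, against 0.0201% to 0.0264% of typical bins. The dense bins with any locus numbered 459, 468, 481 and 492 in these replicates. In typical bins 22, 26, 26 and 29 reached this level, of 4821, 4885, 4937 and 4996 with any locus. At 7 dense bins at least 1 wild-type replicate reached this level.

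How far reads gathered in 1 kb varied among these 7 bins. The densest 1 kb held 21.7% in the chromosome 13 bin, 22.3% in the 45S bin, 34.3% on chromosome 7 and 47.0% in the other chromosome 17 bin. Over the 22 dense bins with an abundant KO locus the median was 19.3%. On chromosome 11, 108870001 to 108880000, 78.9% of 142 reads lay in the densest 1 kb. The locus there had 11597, 11787, 11221 and 11435 FPKM in the wild-type replicates and 89.5 FPKM in the KO. On chromosome 5, 147070001 to 147080000, it was 63.7% of 91 reads, with 21076 to 21892 FPKM in the wild type and 1337 FPKM in the KO. The chromosome 9 bin with the smallest strand p had 45.2% of its 62 reads in 1 kb, and 11.3% of them repeated a start. Its locus, 327 to 330 bases wide in the wild type, had 11989 to 12495 FPKM there and 44066 FPKM in the KO. In the median dense bin the densest 1 kb held 16.7%. Whether reads and RNA at these bins come from the same short sequence was not tested.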
